A study of Mus musculus with 23 samples.

Results

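The enzymes that set, copy and remove cytosine methylation were followed as a group of 8 genes, out of 37310 gene rows in the RNA-seq tables. The members were chosen by symbol, as Dnmt1, Uhrf1, Dnmt3a, Dnmt3b, Dnmt3l, Tet1, Tet2 and Tdg, and the Zbtb11 ChIP-seq peaks at their promoters were taken with them. All 8 had a row in the annotation used for counting (GENCODE vM1, genome build mm9), and all 8 passed the expression filter that left 14346 genes for testing. The maintenance genes lie at chr9:20711650-20757317 on the minus strand (Dnmt1) and chr17:56442744-56462909 on the plus strand (Uhrf1). The de novo genes lie at chr12:3806007-3914443 (Dnmt3a), chr2:153475186-153513466 (Dnmt3b) and chr10:77504692-77526367 (Dnmt3l), all on the plus strand. Tet1 (chr10:62267318-62361866) and Tet2 (chr3:133126643-133207354) are on the minus strand and Tdg (chr10:82092573-82113544) on the plus strand. Dnmt3a, Dnmt3b, Dnmt3l and Tdg overlap an annotated gene on the opposite strand, and whether reads were counted by strand is not given in the sources used here.

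DNA methylation in mammals is placed by DNA methyltransferases on cytosines followed by guanine (CpG). Uhrf1 recognises half-methylated CpGs after replication and brings Dnmt1 to them, so that the pattern is copied to the new strand, whereas Dnmt3a and Dnmt3b methylate new sites, with Dnmt3l as a partner that has no catalytic activity of its own. Tet1 and Tet2 oxidise 5-methylcytosine, and Tdg cuts out the most oxidised forms so that base excision repair can put back an unmodified cytosine. Mouse embryonic stem cells (ESCs) grown in serum express both arms of this system, and the de novo enzymes rise as they move from the naive towards the primed state.

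The study asked what the zinc finger protein Zbtb11 binds and controls in E14 mouse ESCs. The RNA-seq groups had 3 biological replicates each, collected after 48 h, and the values measure RNA only, so that neither enzyme activity nor DNA methylation was measured. The EtOH control was Zbtb11 lox/lox and carried ERt2-Cre at Rosa26, and was given the carrier ethanol, and the Zbtb11 KO was the same line given 4-hydroxytamoxifen (4OHT) at 250 nM, which activates the recombinase and deletes exon 3. The 4OHT control was Zbtb11 WT/WT with a WT Rosa26 locus, also at 250 nM 4OHT. It therefore differed from the EtOH control in both genotype and treatment, which cannot be told apart, and from the KO in genotype at both loci. The KO and the EtOH control came from 1 conditional line made by genome editing, and all cells were cultured without feeders in serum and LIF. ChIP-seq was made in untreated cells, with a Zbtb11 antibody in 4 libraries of E14 WT cells and with a FLAG antibody in 3 libraries of Zbtb11 FLAG/FLAG cells (FLAG-Zbtb11). The FLAG antibody was also used on E14 WT cells as the FLAG control.

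Each RNA-seq library held between 14301457 and 23876604 reads on genes. The 12 listed pluripotency genes were all expressed, with a summed level of 4404 to 5167 CPM (the count of a gene relative to the reads on all genes of the library) in every library, and none was called between the KO and the EtOH control. Summed markers of primitive endoderm lay between 6.74 and 12.7 CPM, of mesoderm between 3.58 and 5.76 CPM and of the neural lineage between 37.3 and 50.8 CPM. The deletion could not be read from these counts, because the annotation merges the Zbtb11 locus into a gene model named Rpl24. Levels are given as CPM, scaled between libraries with TMM normalisation, and as CPM per kilobase of annotated exons where genes are compared with each other.

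Zbtb11 peaks were found at the promoters of both genes of methylation maintenance, Dnmt1 and Uhrf1, and at none of the other 6 promoters. A promoter was taken as 2 kb upstream to 500 bases downstream of any annotated start. Of the 14346 tested genes, 31.1% had a peak of the high-confidence set there, a set of 7500 peaks called with both antibodies, and 2 of the 8 members had one. A share of 2 in 8 is near that background. Both separate peak lists, for the Zbtb11 antibody and for FLAG-Zbtb11, held a peak at the same pair of promoters, against 36.1% and 36.6% of the tested genes. The FLAG control list held a peak at 0 members and at 0.265% of the genes.

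The sequence just upstream of each maintenance gene is shown with that of Dnmt3b, a de novo gene whose promoter had no peak, so that their CpG content can be compared. They were read from mm9 (NCBIM37), 250 bases up to the base before the start, 5′ to 3′ on the strand of the gene. Capitals mark the palindrome bound by the transcription factor NRF1. Dnmt1 lies on the minus strand and Uhrf1 and Dnmt3b on the plus strand.
Dnmt1, chr9:20757318-20757567: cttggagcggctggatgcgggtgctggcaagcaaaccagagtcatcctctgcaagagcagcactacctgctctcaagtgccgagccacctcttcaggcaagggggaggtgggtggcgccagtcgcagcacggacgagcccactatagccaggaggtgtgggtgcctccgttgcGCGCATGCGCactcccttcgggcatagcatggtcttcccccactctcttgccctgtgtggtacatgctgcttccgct
Uhrf1, chr17:56442494-56442743: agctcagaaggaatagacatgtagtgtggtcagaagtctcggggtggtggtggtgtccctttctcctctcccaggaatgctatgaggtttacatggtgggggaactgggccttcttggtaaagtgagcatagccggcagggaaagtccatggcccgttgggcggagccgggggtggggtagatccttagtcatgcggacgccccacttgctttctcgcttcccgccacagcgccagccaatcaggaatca
Dnmt3b, chr2:153474936-153475185: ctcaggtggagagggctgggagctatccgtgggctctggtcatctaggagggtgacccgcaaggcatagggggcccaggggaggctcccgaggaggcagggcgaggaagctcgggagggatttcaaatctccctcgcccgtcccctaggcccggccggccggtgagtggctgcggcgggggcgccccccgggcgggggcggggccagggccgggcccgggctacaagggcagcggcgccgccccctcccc

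These stretches held 13 CpGs for Dnmt1, 10 for Uhrf1 and 21 for Dnmt3b, none of them within an annotated exon. Windows of 1000 bases centred on each annotated start were also counted, beside a median over all genes of 59 CpGs, with quartiles of 36 and 80. Dnmt1 had 54. The protein-coding Uhrf1 starts had 45 and 48 at the 5′ end, below that median, and 75 to 78 at the others further in, above it. Dnmt3b had 102 at its protein-coding starts, and Tet2 and Tdg had 105 and 90 at the upstream start, all above the upper quartile. Dnmt3a, with many annotated starts, ranged from 165 CpGs at Dnmt3a-006 to 4 at the internal start of Dnmt3a-007. Every start of Tet1 and Dnmt3l lay below the lower quartile, with 10 to 32 and 13 to 19 CpGs.

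The Dnmt1 peak reached from the start into the first intron, and its stretch with the matches to 2 searched motifs is shown for that reason, again on the minus strand, from 254 to 551 bases downstream of the start. Capitals mark the NRF1 palindrome again and CTTCCGG, which is CCGGAAG, the core bound by ETS factors such as GABPa, read on the other strand.
Dnmt1 peak, chr9:20756766-20757063: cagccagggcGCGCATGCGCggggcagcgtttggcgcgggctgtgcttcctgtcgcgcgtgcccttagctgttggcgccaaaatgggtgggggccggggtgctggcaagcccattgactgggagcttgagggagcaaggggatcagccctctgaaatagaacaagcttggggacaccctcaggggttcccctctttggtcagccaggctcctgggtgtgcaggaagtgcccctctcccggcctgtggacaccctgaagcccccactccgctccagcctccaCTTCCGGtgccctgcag

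Both motifs were searched as the exact letters in capitals on both strands, and their matches do not overlap each other. The NRF1 palindrome was present within 500 bases of an annotated start in 1 of the 8 members, Dnmt1, which had 2 matches, and in 2.94% of all genes. It occurred in 1.67% of the 7500 peaks. CCGGAAG was present near a start in 2 members, Dnmt3a and Tet1, and in 33.6% of all genes and 39.1% of the peaks. The Dnmt1 peak held 1 match to each motif, at 9:20757044-20757053 and 9:20756776-20756782, and 65 CpGs. The Uhrf1 peak held 62 CpGs and neither set of letters.

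The peak at Dnmt1 (chr9:20756137-20757337) was centred 580 bases downstream of the only annotated start of the gene. Its normalised read coverage in the 4 Zbtb11 antibody libraries was 108, 94.6, 146 and 126, a mean of 119 ± 22.3 (SD, n = 4). In the 3 FLAG-Zbtb11 libraries it was 116, 89.2 and 115, a mean of 107 ± 15.1 (SD, n = 3). The ranges from the antibodies overlapped, and the peak ranked 2294 of 7500 by the Zbtb11 antibody.

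The peak at Uhrf1 (chr17:56442267-56443467) was centred 44 bases downstream of the start of Uhrf1-002. The Zbtb11 antibody libraries gave 195, 192, 226 and 186, a mean of 200.0 ± 18 (SD, n = 4), and ranked it 1362 of 7500. The FLAG-Zbtb11 libraries gave 72.8, 83.3 and 91, a mean of 82.4 ± 9.14 (SD, n = 3), all below each of the antibody libraries. The ratio of FLAG-Zbtb11 to Zbtb11 antibody was 0.412 here and 0.9 at Dnmt1, beside a median of 0.981 over all peaks, and 5.93% of peaks had a ratio as low as that of Uhrf1. For comparison, the strongest promoter peak of the 4459 genes that had one reached a median of 102, with quartiles of 57.9 and 237, so that both maintenance genes lay within the middle of the range.

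The other members lay at various distances from a peak. For Tet1 the nearest peak was within the gene, 4578 bases upstream of the internal start of Tet1-201, and was weak, with a mean coverage of 32.4 and rank 6273. With only the 5′ end of each gene as its start, 2 of 8 members had a peak, against 28.1% of genes. The Tet1 peak counted as a promoter peak when the window was widened to 5 kb on each side, which gave 3 of 8 members against 35.4% of genes. The nearest peak to Tdg was 6731 bases upstream, to Dnmt3l 28594 bases upstream, to Dnmt3b 62846 bases upstream and to Dnmt3a 53350 bases downstream of a start. Tet2 was the most remote, at 396774 bases.

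**Figure D1:**
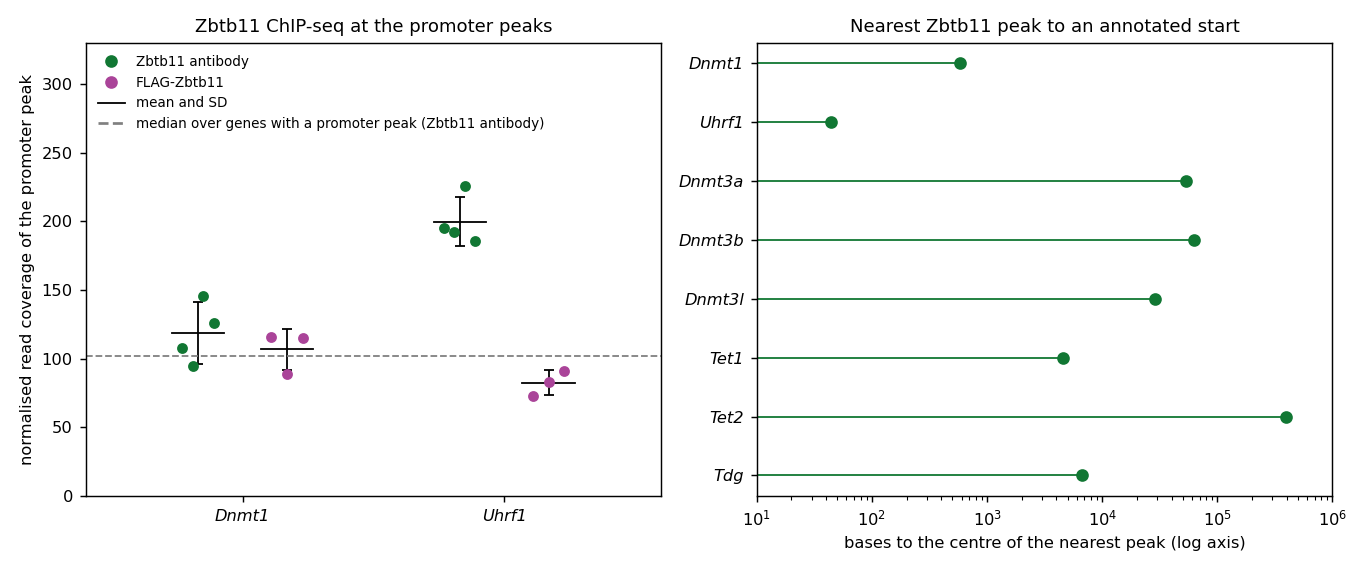
Left, normalised Zbtb11 ChIP-seq coverage of the promoter peaks of Dnmt1 and Uhrf1 in each library, with mean and SD for 4 Zbtb11 antibody and 3 FLAG-Zbtb11 libraries; the dashed line is the median of 102 over genes with a promoter peak. Right, bases on a log axis from the nearest annotated start of each gene to the centre of the nearest peak, from 44 for Uhrf1 to 396774 for Tet2.

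Per kilobase of exons, the mean level over the 9 libraries was 97.8 CPM per kb for Uhrf1, 94.1 for Tet1, 88.8 for Dnmt3l and 76.6 for Dnmt1. Dnmt3b followed with 43.2, Tet2 with 29.5, Dnmt3a with 11.6 and Tdg with 5.22. The order of the first 3 rests on the length used: with the longest transcript in place of all exons Dnmt3l came first, at 146, then Uhrf1 at 116 and Tet1 at 96.3, while Dnmt1, at 76.6, and the genes after it kept their places. Dnmt3l ranged widely between replicates and Tet1 between groups, so that neighbours among the first 4 overlapped over the libraries, as did Dnmt3b and Tet2. By all exons, each library of Dnmt1 lay above each of Dnmt3b and each of Tet2 above each of Dnmt3a, but by the longest transcript these pairs overlapped too, with Dnmt3b at up to 75.7 and Dnmt1 down to 68.2, and Dnmt3a at up to 26.1 and Tet2 down to 21. Each library of Dnmt3a lay above each of Tdg by either length.

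Tdg shared long near-identical stretches, of up to 2908 bases at 95% identity or more, with other gene models, among them the pseudogene Gm9855, whose own level of 15 to 25.7 CPM was close to that of Tdg. The split of reads between them is uncertain, and the values for Tdg are given with that limit. Uhrf1 shared 1590 bases with Gm5648, which had 1 to 6 reads a library.

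The first comparison asked whether loss of Zbtb11 changed the RNA of these genes. None of the 8 members was called between the Zbtb11 KO and the EtOH control, by edgeR or by DESeq2, against a background of 0.899% of all tested genes in edgeR (129 of 14346) and 1.25% in DESeq2. Of those 129 genes, 121 fell and 8 rose. Without adjustment 402 genes had a p value under the threshold of 0.05, and no member was called under any alternative. The fit with replicate number as a covariate called 0 of 8 members beside 2.25% of all genes, or 2.27% without replicate 1, and the fit with groups only called 0 of 8 without replicate 1, beside 1.5%. As the libraries are bulk RNA, fewer cells of a type and less RNA per cell cannot be told apart in this or any later comparison.

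Dnmt1, which copies methylation to the daughter strand, had 432, 410 and 417 CPM in the EtOH control replicates 1 to 3 and 425, 407 and 429 CPM in the KO. The groups overlapped throughout, with means of 420 ± 11.5 and 420 ± 11.4 CPM (SD, n = 3). The log2 difference, KO minus EtOH, was 0.00 with a 95% interval of -0.14 to 0.14 (edgeR adjusted p = 1). The gene with a peak over its first intron thus had no detectable difference, within that interval.

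Uhrf1 had 452, 462 and 449 CPM in the EtOH control and 436, 417 and 420 CPM in the KO. Each KO library lay below each EtOH library, at ratios of 0.966, 0.902 and 0.936 within the replicate numbers. It was the only member whose groups did not overlap, as was true of 7.25% of all genes. The log2 difference of -0.10 (SE 0.06, interval -0.23 to 0.04) did not pass the test (edgeR adjusted p = 1, or 0.545 with replicate number as a covariate).

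Among the de novo genes, Dnmt3a had 156, 202 and 252 CPM in the EtOH control and 149, 189 and 253 CPM in the KO. Dnmt3b had 155, 225 and 286 CPM in the EtOH control and 135, 211 and 277 CPM in the KO. For both enzymes the groups overlapped over nearly their whole range, and replicate 1 was lowest and replicate 3 highest on each side. Dnmt3l, their cofactor, had 205, 332 and 351 CPM in the EtOH control and 190, 279 and 345 CPM in the KO, with the same order. The log2 differences were -0.05, -0.10 and -0.13, and their intervals were wide, from -0.89 to 0.69 for Dnmt3b. With replicate number as a covariate the difference for Dnmt3b was -0.11 with an interval of -0.23 to 0.01 (edgeR adjusted p = 0.538). For Dnmt3l it was -0.13, from -0.27 to 0.00 (edgeR adjusted p = 0.504).

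Of the genes that remove methylation, Tet1 had 1466, 1514 and 1491 CPM in the EtOH control and 1347, 1485 and 1391 CPM in the KO. Tet2 had 233, 332 and 279 CPM in the EtOH control and 206, 310 and 222 CPM in the KO. Both were lower in the KO in 3 of 3 replicate numbers, although the groups overlapped. The log2 difference was -0.08 for Tet1 and -0.19 for Tet2, and with replicate number as a covariate Tet2 gave -0.20 with an interval of -0.37 to -0.03, which did not pass adjustment over all genes (edgeR adjusted p = 0.366). Tdg had 24.4, 27.5 and 31.5 CPM in the EtOH control and 21.4, 27.7 and 31.4 CPM in the KO, a log2 difference of -0.05. In 5 of the 8 members, Uhrf1, Dnmt3b, Dnmt3l, Tet1 and Tet2, the KO was lower within all 3 replicate numbers. Dnmt1, Dnmt3a and Tdg moved in both directions. Of all tested genes 35.9% moved in 1 direction, either higher or lower, in all 3 numbers.

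**Figure D2:**
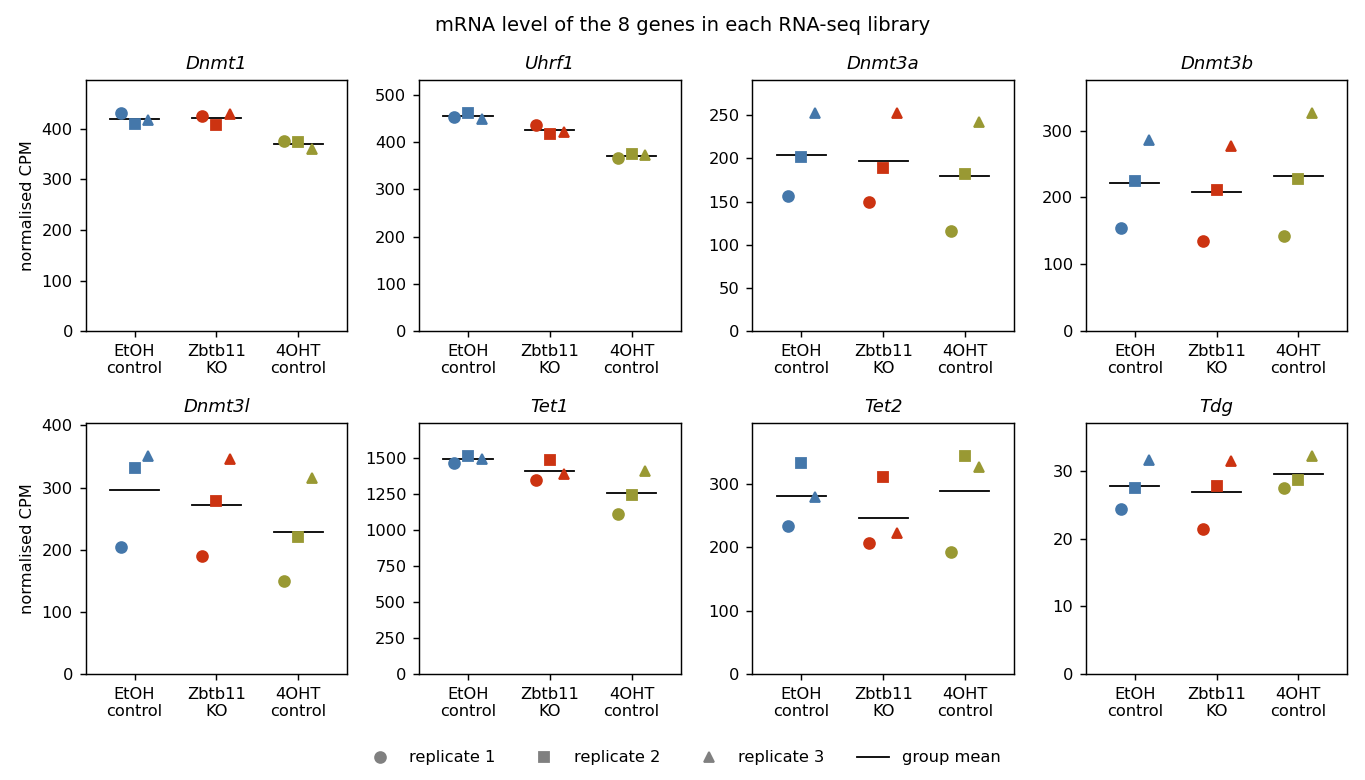
Normalised CPM of each of the 8 genes in every RNA-seq library, with the symbols for replicate number and a line at the group mean. Dnmt1 and Uhrf1 stay between 359 and 462 CPM in all 9 libraries, and Dnmt3a, Dnmt3b and Dnmt3l are lowest in replicate 1 and highest in replicate 3 of each group.

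The 4OHT control was set against each of the other groups to see how the second control line compares. These comparisons share libraries with each other and with the first one, so their values are given side by side. Against the EtOH control, 1 of 8 members was called, Uhrf1, and 4.06% of all genes were. Its levels in the 4OHT control were 367, 374 and 372 CPM, each below every library of both other groups, and the log2 difference was -0.29 (SE 0.06, edgeR adjusted p = 0.0299), a ratio of 0.816. The call was lost without replicate 2 (edgeR adjusted p = 0.665) and without replicate 3 (edgeR adjusted p = 0.404), although the difference itself was -0.29 and -0.30 there, and Uhrf1 was again the 1 member called without replicate 1, with 17.1% of all genes. DESeq2 called 2 members, Uhrf1 (adjusted p = 3.07e-08) and Dnmt1 (adjusted p = 0.00683), and 8.27% of all genes.

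Dnmt1 was at 375, 374 and 359 CPM in the 4OHT control, again below every library of the other groups. The difference from the EtOH control was -0.19 (SE 0.06, edgeR adjusted p = 0.153). Tet1 was at 1113, 1243 and 1406 CPM, below all of the EtOH control libraries and overlapping the KO. The groups failed to overlap for Dnmt1, Uhrf1 and Tet1, as for 21.7% of all genes.

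Libraries of replicate 1 deviated together, apart from those of the other numbers. Taking the number as a covariate raised the calls to 5 of 8 members in this comparison, when 33.6% of all genes were called. These 5 were lower in the 4OHT control: Dnmt3l with a log2 difference of -0.39 (edgeR adjusted p = 9.22e-05), Uhrf1 with -0.29 (edgeR adjusted p = 0.000167), Tet1 with -0.25 (edgeR adjusted p = 0.00489), Dnmt1 with -0.18 (edgeR adjusted p = 0.00843) and Dnmt3a with -0.20 (edgeR adjusted p = 0.015). Without replicate 1 the same fit called Uhrf1, Dnmt1 and Dnmt3l, when 27.6% of all genes were called. Dnmt3l had 150, 221 and 315 CPM in the 4OHT control, ratios to the EtOH control of 0.735, 0.665 and 0.898 within replicate numbers. Dnmt3a had 116, 182 and 242 CPM, and its ratio was 0.743 in replicate 1 but 0.899 and 0.959 in the others. Dnmt3b (142, 228 and 327 CPM), Tet2 (193, 344 and 327 CPM) and Tdg (27.5, 28.7 and 32.2 CPM) were not called, with differences of 0.03, 0.01 and 0.08 with the covariate and 0.07, 0.03 and 0.09 without it.

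Between the KO and the 4OHT control, 0 of 8 members were called by edgeR, against 6.45% of all genes, and 0 without replicate 1, against 18.7%. DESeq2 called Uhrf1 (adjusted p = 0.000607) and Dnmt1 (adjusted p = 0.0046), with 10.2% of all genes. In edgeR, Uhrf1 was 0.20 higher in the KO on the log2 scale (SE 0.06, edgeR adjusted p = 0.0975) and Dnmt1 0.19 higher (SE 0.06, edgeR adjusted p = 0.128), and these were the 2 members whose groups did not overlap, as for 22.9% of all genes. With replicate number as a covariate 5 of 8 members were called, and 34.9% of all genes. Dnmt1, Uhrf1, Dnmt3l and Tet1 were higher in the KO, by 0.19, 0.19, 0.26 and 0.17, and Tet2 was lower, by -0.21 (edgeR adjusted p = 0.0472). Tet2 was below the 4OHT control in replicates 2 and 3, with ratios of 0.901 and 0.681, and not in replicate 1, with 1.07. Without replicate 1 the fit with the covariate also called 5 members, among them Tet2 at -0.36 (edgeR adjusted p = 0.00107) and Dnmt3b at -0.18 (edgeR adjusted p = 0.0293), with Tet1 no longer called, when 29.5% of all genes were called.

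**Figure D3:**
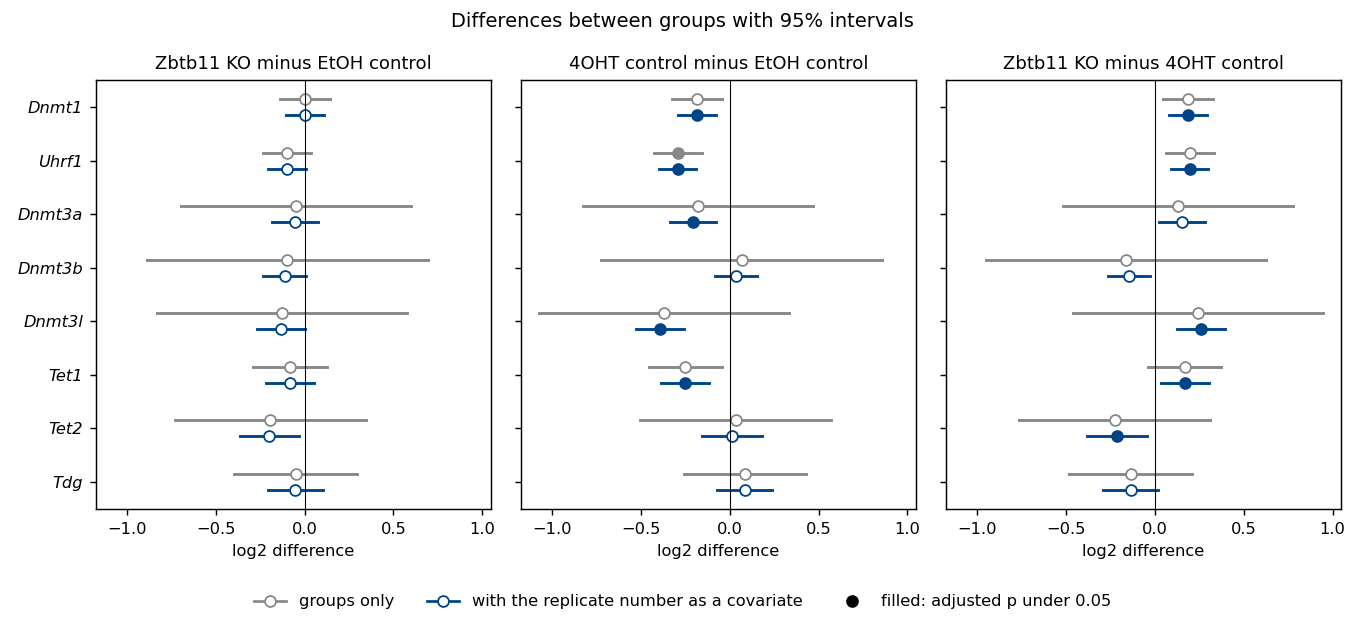
Log2 difference of each gene in the 3 comparisons, with 95% intervals, from the fit with groups only (grey) and with replicate number as a covariate (blue); filled points have an adjusted p under 0.05. No point is filled for the KO minus the EtOH control, and the intervals of Dnmt3a, Dnmt3b and Dnmt3l shrink most with the covariate.

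The de novo genes differed between replicate numbers in every group. An edgeR test of the replicate number, with group in the model, called 5 of 8 members, when 55.9% of all genes were called. Dnmt3b had the smallest adjusted p (1.55e-10), followed by Dnmt3l (3.85e-09), Dnmt3a (7.68e-09), Tet2 (6.65e-06) and Tdg (0.000872). Dnmt1 (adjusted p = 0.689), Uhrf1 (0.956) and Tet1 (0.153) were not called.

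Replicate 3 exceeded replicate 1 by a log2 difference of 1.04 for Dnmt3b (SE 0.06), 0.91 for Dnmt3l and 0.83 for Dnmt3a, ratios of 2.06, 1.87 and 1.78. A difference at least as large was seen in 4.96%, 7.67% and 9.52% of all genes. For Dnmt1 the difference was -0.03 and for Uhrf1 -0.02, and 93% and 96.9% of genes differed by as much or more. The spread within groups restates this contrast, because each group held the same replicate numbers. The coefficient of variation lay between 23.5% and 39.9% for the 3 de novo genes, and between 0.95% and 2.74% for the 2 maintenance genes.

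Replicate 1 was not the only one that differed. Dnmt3a, Dnmt3b and Dnmt3l were also higher in replicate 3 than in replicate 2, by 0.38 (edgeR adjusted p = 0.00219), 0.42 (edgeR adjusted p = 0.000459) and 0.30 (edgeR adjusted p = 0.0168), where 1.75% of all genes were called. Without replicate 1, the test of the number called Dnmt3a, Dnmt3b, Dnmt3l and Tet2, and 2.98% of all genes, and Tdg was no longer called (adjusted p = 0.153). Tet2 followed another order, with replicate 2 highest in all 3 groups. Its log2 difference from replicate 1 was 0.64 in replicate 2 and 0.38 in replicate 3.

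**Figure D4:**
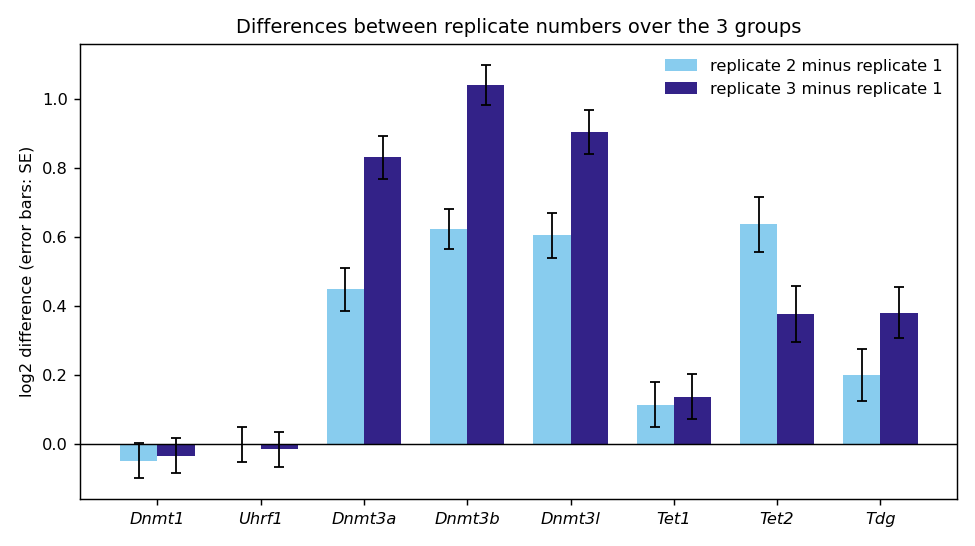
Log2 difference of replicate 2 and of replicate 3 from replicate 1 for each gene, over the 3 groups, with SE as error bars. The bars of Dnmt1 and Uhrf1 sit near 0, those of Dnmt3a, Dnmt3b and Dnmt3l reach 0.83 to 1.04 in replicate 3, and Tet2 is highest in replicate 2.

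Over the 9 libraries, which share these replicate numbers, log2 CPM of Dnmt3a and Dnmt3b correlated with Pearson r = 0.931, of Dnmt3a and Dnmt3l with 0.96 and of Dnmt3b and Dnmt3l with 0.876. After the group means were taken out these were 0.989, 0.969 and 0.986. Dnmt1 and Uhrf1 correlated with 0.874 over the libraries and with -0.01 once the group means were taken out. The genes most like Dnmt3a over the 9 libraries were Slc27a2 (r = 0.992), Pus7 and Dhx15, and those most like Dnmt3l were Psmc6 (r = 0.992), Celf1 and Ranbp1. For Dnmt1 they were Sh3bgrl (r = 0.992), Coq6 and Gm10069, and for Uhrf1 Slc39a1 (r = 0.972), Sbno1 and Hsd17b10. Tet1 was most like Taok1, BC024659 and Ggct, Tet2 like Chm (r = 0.985), Epb4.1l4a and Klf5, and Tdg like its near copy Gm9855 (r = 0.974), Pwwp2a and Dicer1.

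Other markers moved with the replicate numbers. Summed levels of 7 genes of the primed and early epiblast state were 86.5 to 98.6 CPM in the 3 replicate 1 libraries. The other libraries had 126 to 197 CPM. In the EtOH control Zic2 and Lef1 made up most of the sum, with means of 64.3 and 33 CPM. The defining marker Fgf5 was at or near 0 throughout, and 0 or 1 of the 7 genes had no read in a library. Of the 5 tested genes of this list, 2 were called higher and 1 lower in replicate 2 than in replicate 1. In replicate 3, 3 were called higher and 0 lower. Of all genes 50.8% and 56.9% were called in these comparisons, in either direction. Of the 12 pluripotency genes, 10 were called for replicate number, beside 55.9% of all genes. Against replicate 1, 7 of these 12 were called higher and 1 lower in replicate 2. In replicate 3, 5 were called higher and 4 lower than in replicate 1. Of all genes, 50.8% and 56.9% were called there in either direction. Between replicates 3 and 2, 5 of the 12 were called lower and 0 higher in replicate 3, where 1.75% of all genes were called in either direction. The summed level of 5 fibroblast markers was 37.3 to 41.3 CPM in replicate 1 and 19.6 to 25.6 CPM in the others. In the EtOH control Pdgfrb had the widest range of the 5, from 3.55 to 14.4 CPM, whereas Col1a2 kept to 3.04 to 3.28 CPM. Of the 4 tested, 3 were called lower and 0 higher than in replicate 1, in replicate 2 and again in replicate 3. The shares of all genes called there were the 50.8% and 56.9% given above. The part of these markers in the differences of the de novo genes was not tested.

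The wider pathway was described with 7 lists of 70 genes, of which 69 were tested. Between the KO and the EtOH control 1 of the 69 was called, a share of 1.45% beside 0.899% of all genes, and it was Trdmt1. Trdmt1 formed a list of its own. As the lists were chosen with earlier results of these data known, the share is a description only. This gene has the fold of a DNA methyltransferase but methylates transfer RNA. Trdmt1 had 6.31, 8.13 and 8.14 CPM in the EtOH control, 0.524, 0.873 and 0.745 CPM in the KO and 7.07, 10.2 and 9.95 CPM in the 4OHT control. The KO libraries rested on 9, 18 and 15 reads and lay far below both controls. Trdmt1 passed the expression filter only through libraries of the EtOH control and the 4OHT control, so its calls are a description only. Trdmt1 fell by 3.37 on the log2 scale against the EtOH control (SE 0.25, edgeR adjusted p = 0.000152), 10.4-fold lower, and by 3.65 against the 4OHT control (edgeR adjusted p = 4.1e-05). The first call was just lost without replicate 2 (edgeR adjusted p = 0.0575) and without replicate 3 (edgeR adjusted p = 0.0568), with differences of -3.49 and -3.34. The Zbtb11 peak at its promoter (chr2:13465733-13466933) had a mean coverage of 589 and ranked 363 of 7500, well above those of Dnmt1 and Uhrf1.

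None of the 68 other pathway genes was called in the KO against the EtOH control. Among the 10 partners of maintenance and de novo methylation, the smallest unadjusted p values belonged to Setdb1, a histone methyltransferase, at -0.11, and Cdca7, at -0.03. Among 19 genes of oxidation and base excision they belonged to Ogt (-0.14) and Lig3 (0.09), among 7 readers of methylated CpGs to Mbd2 (0.06) and Zbtb4 (0.14), among 12 genes of methyl donor supply to Mtrr (-0.10) and Ahcy (0.10), and among 8 chromatin factors to Kdm2a (-0.07) and Kdm1a (-0.04). The last list held 12 germline genes known as targets of promoter methylation, and Sycp1 (-0.39) and Tex101 (0.69) came first there. As a set the germline genes were not silent in these libraries, where all 12 passed the expression filter and their summed level was 135 to 183 CPM. Some of them were close to the floor. Asz1 had a mean of 0.896 CPM in the EtOH control and 0.24 CPM in the 4OHT control, and Tex101 had 0.931 CPM in the EtOH control. A promoter peak was present at 3 of the 10 partners (Cdca7, Zbtb24 and Setdb1), 3 of the 19 oxidation and repair genes (Neil1, Neil2 and Idh1), 1 of the 7 readers (Zbtb38), 1 of the 8 chromatin factors (Kdm2b) and 0 of the 12 germline genes, beside the 31.1% of all genes.

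Against the 4OHT control more of these genes were called, 5 of 69 with the EtOH control (7.25%, beside 4.06% of all genes) and 7 of 69 with the KO (10.1%, beside 6.45%). Dppa3, which shields methylation states in the early embryo, had 53.6, 53.5 and 45.8 CPM in the EtOH control, 52.1, 49.2 and 46.5 CPM in the KO and 19.8, 19.1 and 13.7 CPM in the 4OHT control. The 4OHT control lay below both other groups with no overlap. Dppa3 was 2.82-fold higher in the KO than in the 4OHT control (edgeR adjusted p = 0.000344).

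The glycosylases Mbd4 and Ung showed the same order. Mbd4 had 53.6, 46.7 and 49.5 CPM in the EtOH control, 55.3, 46.9 and 45.5 CPM in the KO and 31, 24.8 and 25.6 CPM in the 4OHT control. It was 0.86 higher in the KO than in the 4OHT control (edgeR adjusted p = 0.00287), and Ung was 0.33 higher (edgeR adjusted p = 0.0458). Parp1, a sensor of DNA breaks in base excision repair, went the other way, with 751, 735 and 672 CPM in the 4OHT control and at most 575 CPM in the other libraries, and was lower by -0.38 in the KO than in the 4OHT control (edgeR adjusted p = 0.0139). The germline genes Asz1, at 1.98, and Mael, at -1.15, were the others called in this comparison besides Trdmt1. Asz1 rested on 4, 3 and 7 reads in the 4OHT control. It passed the expression filter only through libraries of the EtOH control and the KO, so its call carries no weight. Without replicate 2 or replicate 3 most of these calls were lost, with 1 and 2 of the 69 left against the KO, beside 0.565% and 0.785% of all genes. With replicate number as a covariate 29 of the 69 were called, a share of 42%, beside 34.9% of all genes.

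**Figure D5:**
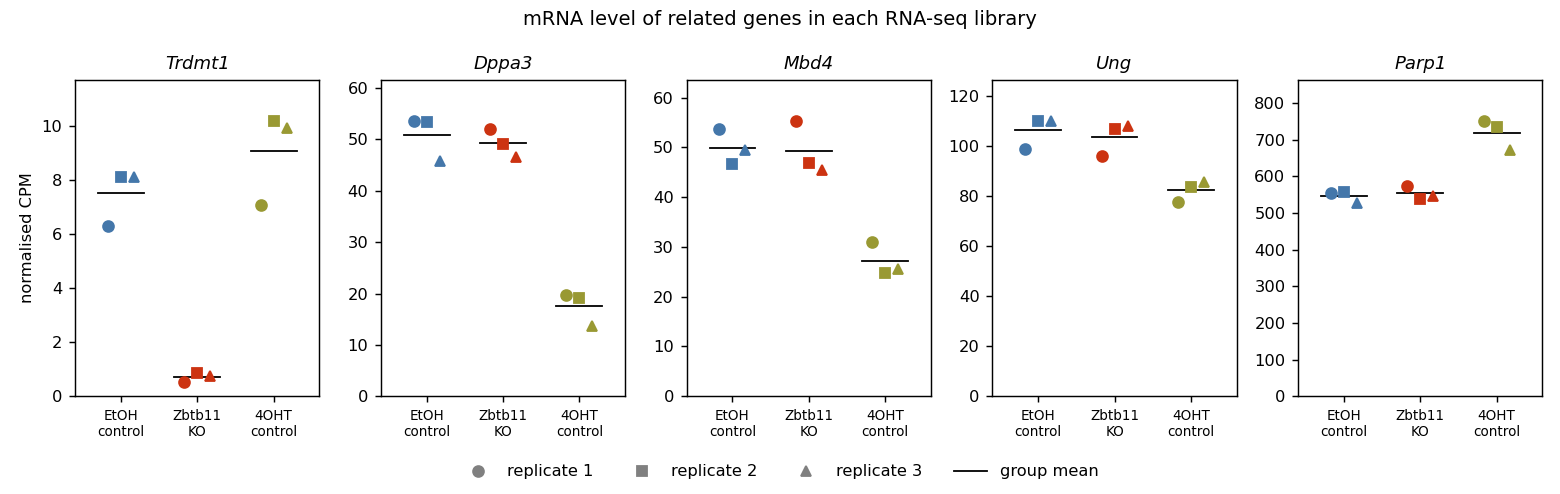
Normalised CPM of Trdmt1, Dppa3, Mbd4, Ung and Parp1 in every RNA-seq library, with a line at the group mean. Trdmt1 is at 0.524 to 0.873 CPM in the KO and at 6.31 or more in the controls, whereas the other 4 genes separate the 4OHT control from both remaining groups.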

How the data were processed

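RNA-seq and ChIP-seq libraries of mouse ESCs were used as deposited. The RNA-seq files hold raw counts per gene, made by the authors from rRNA-depleted, directional libraries with STAR and HTSeq and not normalised. The coverage table holds read coverage (signal) of the 7500 high-confidence peaks, which the authors aligned to mm9 with Bowtie 1.1.2, called with MACS2 and IDR over all replicates of a ChIP and normalised between libraries with DiffBind. The deposited peak lists hold positions only. Input libraries were not used here. Between 25.3% and 31.6% of reads had no feature and 0.79% to 0.905% were ambiguous, and these rows were left out of library sizes. All 37310 identifiers matched a symbol, and no 2 libraries were identical. Tfcp2l1 was matched under its older symbol Tcfcp2l1, and Sox1 had no row.

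Differences were tested with edgeR 4.0.16 in R 4.3.3, on all 9 libraries with group as the only term, by the two-sided quasi-likelihood F test (legacy form) after TMM scaling. Genes with over 1 CPM in at least 3 libraries were tested, or 2 where a replicate was left out. The Benjamini-Hochberg adjustment ran over every gene tested, at 0.05, and all adjusted p values are edgeR's unless DESeq2 (1.42.0) is named. With n = 3 per group, 95% intervals are from the same fit. The test of replicate number took both of its coefficients together with group. Coverage, levels and sequence matches have no test. Coordinates are 1-based where read from the reference, and peak positions are as the table gives them.

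The replicate numbers in the labels were checked as a pairing. After group means were taken out, same-numbered libraries of different groups correlated at 0.43 to 0.82 over 9 pairs. Different numbers gave -0.753 to 0.526 over 18. All pairs of replicate 1 with another number were negative, but pairs of replicate 2 with replicate 3 were not. EtOH control 2 had 0.526 with 4OHT control 3 and 0.43 with 4OHT control 2. The numbers therefore set replicate 1 apart and do not clearly pair replicates 2 and 3. The fit with the number as a covariate (block) is given beside results where it changes a call.

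The 8 members were named in every comparison, with every pathway gene called in a comparison of the KO with a control, otherwise the 2 of each list with the smallest p, and the 3 genes most like each member. The genes most like Dnmt3b and the promoter peaks of the methyl donor genes are not reported here. Members and lists were chosen with earlier results of these data known. Gene sequences of 100 bases or more at 95% identity were called near-identical. The alternatives were DESeq2, other normalisations and filters, the newer form of the fit, the block, only the groups compared, each replicate left out, other promoter and peak definitions, other ChIP libraries and another gene length. On simulated data for the KO and the EtOH control, 200 of 14188 genes were altered. The test recovered 79.4% of the 107 genes with a log2 change of 1 and 95.7% of the 93 with 2, and 1.14% of its 176 calls were unchanged genes. Changes as small as the differences of the members were not simulated, so their recovery is not known.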

Additional observations from a re-analysis of the deposited data

How the results depend on the processing

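No member was called between the KO and the EtOH control under any of the alternatives run. The direction turned in that comparison, never with a call, for Dnmt1 (-0.0169 to 0.0143 on the log2 scale when each replicate was left out, negative without replicate 3) and for Tdg (-0.085 to 0.00305, positive without replicate 1, and 0.0029 with the replicate block without replicate 1). In the 4OHT control against the EtOH control it turned without replicate 3 for Dnmt3b (-0.0398 to 0.123 over the replicates left out) and Tet2 (-0.0723 to 0.138), also not called. The number of members called for the 4OHT control against the EtOH control was 1 and became 0 with no expression filter or with only the 2 groups compared, 0 to 1 when each replicate was left out, 2 with DESeq2, 5 with the replicate block and 3 with the replicate block without replicate 1. Between the KO and the 4OHT control 0 became 5 with the replicate block, 5 with the block without replicate 1 and 2 with DESeq2. The block changed no member's call in the comparison of the KO with the EtOH control. The cause of these changes was not tested. Over all genes, the calls for the KO against the EtOH control were 129, and 323 with the block, 212, 13 and 21 without replicate 1, 2 and 3, and 180 with DESeq2. In the 4OHT control against the EtOH control, 583 became 4816 with the block, 2420, 13 and 24 without replicate 1, 2 and 3, 1187 with DESeq2 and 171 with only the 2 groups. For the KO against the 4OHT control, 925 became 5010, 2645, 82, 114, 1469 and 570 in the same order. For the replicate number 8026 became 422 without replicate 1. When a promoter peak had to be centred within the promoter 1 member had one, Uhrf1. The coverage of Uhrf1 was 82.4 by the FLAG-Zbtb11 libraries. With the longest transcript as length, the levels became 116 for Uhrf1, 20.0 for Dnmt3a, 146 for Dnmt3l and 8.01 CPM per kb for Tdg. Of the values of single members under the alternatives, 291 kept their side of the threshold and, where they had one, their direction. A further 19 passed the threshold only under the alternative, 5 passed it only in the main fit, and 5 turned direction. Without the block, the 95% interval of Dnmt3b between the KO and the EtOH control ran from -0.89 to 0.69 on the log2 scale, and Tdg reads may be shared with near copies.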

Other observations

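Neither Eomes, an early mesoderm regulator, nor Col1a2, a fibroblast collagen, is part of the methylation system. Both were called among the marker genes in the comparison of the KO with the 4OHT control, where 6.45% of all genes were called. Eomes was the only 1 of 5 mesoderm markers tested, and Col1a2 was 1 of 4 tested fibroblast markers. Of the tested pluripotency (12), primed (5), primitive endoderm (3) and neural (2) genes, 0 were called there. Eomes was lower in the KO by -0.74 on the log2 scale (edgeR adjusted p = 0.0287) and Col1a2 was higher by 1.96 (edgeR adjusted p = 0.0026). Col1a2 rested on 15, 16 and 15 reads in the 4OHT control. It passed the expression filter through libraries of the EtOH control and the KO, so its call carries no weight. Both calls were lost without replicate 2 (edgeR adjusted p = 0.426 and 0.102) and without replicate 3 (edgeR adjusted p = 0.385 and 0.15). In the KO against the EtOH control they differed by -0.23 and -0.05 (edgeR adjusted p = 1 for both). Among the listed pluripotency genes, 1 of 12 had a Zbtb11 promoter peak, Pou5f1, beside 31.1% of all tested genes.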
